A study of Arabidopsis thaliana with 44 samples.

Results

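The chromosome 1 segment described here runs from locus AT1G21360 to locus AT1G33860, the stretch in which seed RNA signals of the Arabidopsis near isogenic line NIL DOG3 stand apart from those of NIL DOG6 and NIL DOG1. Of the 27827 probe sets measured, each named for a locus, 1200 lie in this span. A set of 19 of these loci was left out by name and the other 1181 are the members. The span was chosen because NIL DOG3 differs there from the other lines, so the size and number of its differences from them are a description. Where members are called for this contrast, the call only marks those past a threshold of the limma fit and supports nothing about the segment. The responses of the members to growth conditions, the change of the NIL DOG3 difference with condition, and the difference between NIL DOG6 and NIL DOG1 were not used for that choice and were tested.

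A near isogenic line carries a stretch of chromosome from a donor accession in the background of another, and is made by repeated backcrossing with selection at a locus of interest. Within the donor stretch the line has the donor's alleles of every gene, whether or not they bear on the trait, and RNA levels there can differ from the background line through variants in promoters, deleted or duplicated genes, or changes in RNA stability. An array adds a further source, because a base change under a probe lowers its binding without any change of RNA level. The DELAY OF GERMINATION (DOG) loci are known as regions of the genome that affect seed dormancy, the state in which a fresh seed does not germinate under favourable conditions.

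RNA of freshly harvested dry seed was measured on 44 arrays as log2 signals normalised with RMA, with 14 arrays of NIL DOG3, 15 of NIL DOG6 and 15 of NIL DOG1. The mother plants of the seed were kept at 15C, with low nitrate (N0), at 20C, in low light (LL) or in standard light (SL). The labels name 20C as what 15C and N0 are set against, and SL as what LL is set against. Line and condition together form 15 groups. A group had 3 arrays, but NIL DOG3 with N0 had 2, and each replicate pooled 4 plants. Each line name stands for 1 line, all lines carry an introgression, and no array of a line without one was analysed here. The labels name neither the donor and background accessions nor the bounds of the introgressions.

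The tissue label was checked with 11 genes of seed storage proteins, oil body proteins and late embryo proteins. Their mean level lay between 11.40 and 11.99 on the log2 scale on all 44 arrays, against a median of 4.28 over all probe sets. Of these genes SESA2 and SESA4 were called lower in NIL DOG3 (-0.37 and -0.28), with called meaning an adjusted p under 0.05 in a limma fit over all probe sets. Of 4 pollen and 3 leaf marker genes 0 were called for a NIL DOG3 difference. Array medians were 4.22 to 4.39, and arrays of one group correlated at 0.987 to 0.994 over all probe sets.

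Across the segment, RNA signals in NIL DOG3 were both higher and lower than in the other lines, and the large differences were mostly lower ones. The NIL DOG3 difference is the log2 value in NIL DOG3 minus the mean of NILs DOG6 and DOG1, taken within each condition and averaged over the 5 conditions. Of the 1181 members, 163 were called higher and 205 lower (limma, adjusted p under 0.05 over all probe sets), or 31.2% in all. The background over the whole array was 11.9%, made up of 6.69% in the higher and 5.2% in the lower direction. At least 2-fold differences were found in 14 members that were higher and 37 that were lower, where 0.172% and 0.208% of all probe sets passed, or 0.381% in both directions. Because the span was chosen on this contrast, nothing is read from the gap between these shares.

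Most members differed little. The size of the difference was under 0.25 on the log2 scale in 899 members, 0.25 to 0.5 in 154, 0.5 to 1 in 77, 1 to 2 in 41, 2 to 4 in 8 and above 4 in 2 members. The median difference was -0.023 for the members and -0.0048 for all probe sets. Of the 10 members with a difference of 2 or more on the log2 scale, 9 were lower in NIL DOG3.

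**Figure D1:**
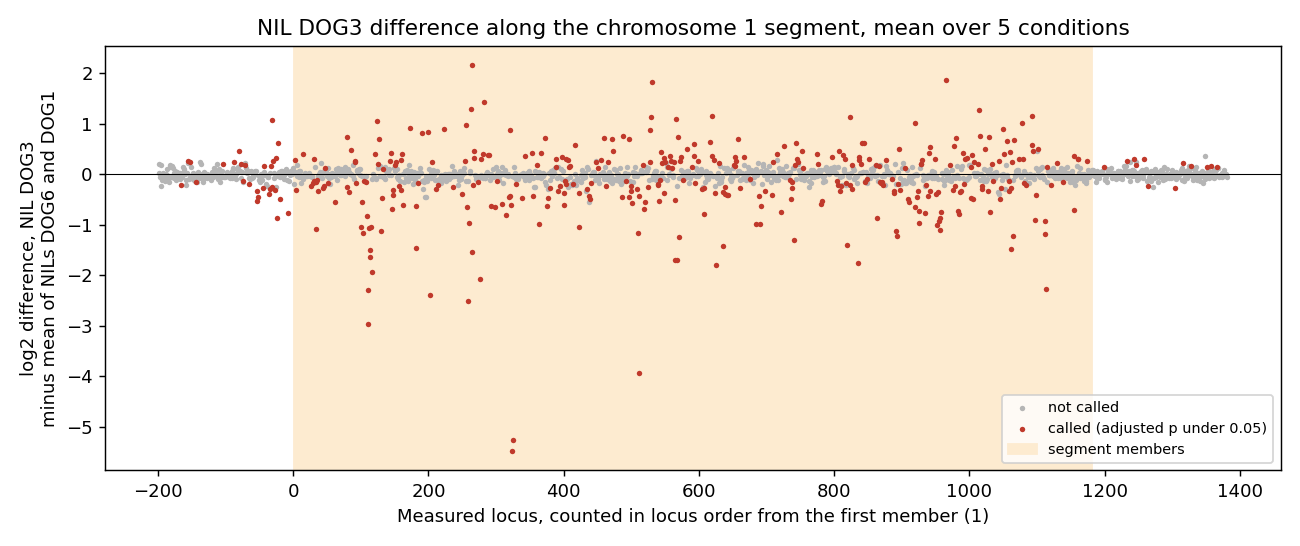
The NIL DOG3 difference (log2, NIL DOG3 minus the mean of NILs DOG6 and DOG1, averaged over 5 conditions) is plotted for each measured locus in locus order, with 200 loci beyond each end and 1 point per locus. Called loci are red and the shaded part holds the 1181 members. Points spread to both sides along most of the segment, and the 2 lowest, below -5, are AT1G24388 and AT1G24390.

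The lowest signals relative to the other lines were those of AT1G24388 and AT1G24390, a pair of protein coding loci without a symbol that overlap in the TAIR10.1 gene table. AT1G24388 had log2 values of 2.59, 3.05 and 3.62 (lowest, median and highest of 14 arrays) in NIL DOG3, against 8.20, 8.56 and 8.97 in NIL DOG6 and 8.09, 8.51 and 8.94 in NIL DOG1 (15 arrays each). For AT1G24390 the values were 3.19, 3.91 and 5.30 in NIL DOG3, 8.97, 9.28 and 9.50 in NIL DOG6, and 8.85, 9.26 and 9.49 in NIL DOG1. Every NIL DOG3 array lay below every array of the other lines for both loci, and in NIL DOG3 the medians were below the median of all probe sets. The differences were -5.47 ± 0.08 (SE), or 44.5-fold, and -5.26 ± 0.11. Since the loci overlap, their signals need not come from separate transcripts. The log2 difference of AT1G24388 lay between -5.76 and -5.08 in the 5 conditions.

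AT1G27030, also without a symbol, came next. Its values were 3.52, 3.90 and 4.43 in NIL DOG3 against 7.04, 7.60 and 8.43 in NIL DOG6 and 7.31, 7.89 and 9.0 in NIL DOG1, a difference of -3.94 ± 0.06. The groups did not overlap. AT1G23780 reached 5.65, 6.33 and 6.81 in NIL DOG3, against 8.61, 8.85 and 8.99 in NIL DOG6 and 8.60, 8.75 and 8.94 in NIL DOG1 (-2.52 ± 0.06). AT1G23201 had 2.48, 2.98 and 3.42 in NIL DOG3, against 4.86, 5.33 and 6.00 in NIL DOG6 and 4.67, 5.29 and 5.99 in NIL DOG1 (-2.38 ± 0.09). Both loci were lower on every NIL DOG3 array than on any other array, but AT1G23780 stayed well above the array median in NIL DOG3 while AT1G23201 did not. A lower signal in bulk seed can come from fewer cells of a type or from less RNA per cell, and these cannot be told apart here. Neither can a difference in RNA level, lower or higher, be told apart from a base change under a probe in one of the lines. This holds for any member, because no probe sequences were used.

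A tandem cluster of UDP-glycosyltransferase genes of the UGT85A group, enzymes that attach a sugar to small molecules, was low in NIL DOG3 as a block. UGT85A5 had 4.17, 4.68 and 5.25 in NIL DOG3, against 7.42, 7.69 and 7.98 in NIL DOG6 and 7.11, 7.60 and 7.98 in NIL DOG1. UGT85A2 had 2.91, 3.69 and 4.33 in NIL DOG3, against 5.35, 5.90 and 6.71 in NIL DOG6 and 5.85, 6.11 and 6.81 in NIL DOG1. These 2 genes did not overlap between NIL DOG3 and the other lines, with differences of -2.97 ± 0.07 and -2.30 ± 0.08. UGT85A1 (-1.50), UGT85A3 (-1.06) and UGT85A7 (-0.83) were also called lower. UGT85A3 had its values at 5.60, 6.50 and 6.98 in NIL DOG3, against 7.08, 7.49 and 7.92 in NIL DOG6 and 6.90, 7.39 and 7.92 in NIL DOG1, so its NIL DOG3 and NIL DOG1 arrays overlapped. Outside the cluster, UGT74B1, which acts in glucosinolate synthesis, differed by -0.03, and UGT78D1, a flavonol rhamnosyltransferase, by -0.02, and neither was called. Of the 7 genes in the list of these enzymes, 5 were called lower and 0 higher, with a median of -1.06, where the background is 5.2% lower and 6.69% higher. All 5 belong to this 1 cluster, and nothing is read from the count. Close copies such as these can share probe sequence, which was not tested. The neighbouring locus AT1G22403, a non-coding RNA in the gene table, was lower too (-1.65 ± 0.08), as were AT1G22410 (-1.04) and AT1G22430 (-1.95 ± 0.04).

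Further genes with a symbol among the lower members act in varied processes. ATJ1, a DnaJ type co-chaperone, had 5.54, 5.69 and 5.90 in NIL DOG3, against 6.87, 7.10 and 7.28 in NIL DOG6 and 6.87, 7.17 and 7.40 in NIL DOG1. FdC2, a ferredoxin-like protein, had 7.29, 7.56 and 7.88 in NIL DOG3, against 8.32, 8.77 and 8.99 in NIL DOG6 and 8.45, 8.90 and 9.28 in NIL DOG1. Neither gene overlapped between NIL DOG3 and the other lines, and the differences were -1.42 and -1.23. JAZ8, a repressor of jasmonate signalling, reached 3.75, 4.25 and 5.11 in NIL DOG3, against 5.05, 5.74 and 6.45 in NIL DOG6 and 5.0, 5.70 and 6.78 in NIL DOG1 (-1.40), with the highest NIL DOG3 array above the lowest of the other lines. ZYP1b, a gene of the synaptonemal complex that joins chromosomes in meiosis, differed by -1.17 at low levels, with medians of 3.09 in NIL DOG3, 4.34 in NIL DOG6 and 4.23 in NIL DOG1. AT1G27520, which the table lists as the mannosidase MNS5, differed by -1.70 ± 0.08. AT1G28120 (-1.79), AT1G30300 (-1.75), AT1G27540 (-1.69) and AT1G23850 (-1.54) have no symbol, nor do AT1G33055 (-2.27 ± 0.15) and AT1G23970 (-2.07 ± 0.05). AT1G33055 overlaps AT1G33050, which was also lower (-1.18).

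Higher signals in NIL DOG3 were led by AT1G23840, a protein coding locus without a symbol. It had 4.68, 5.58 and 5.83 in NIL DOG3, against 2.48, 3.14 and 3.95 in NIL DOG6 and 2.68, 3.33 and 3.80 in NIL DOG1 (2.15 ± 0.09, 4.45-fold). TRM9, a tRNA methyltransferase gene, had 5.84, 6.19 and 6.61 in NIL DOG3, against 4.26, 4.71 and 5.35 in NIL DOG6 and 3.62, 3.96 and 4.27 in NIL DOG1 (1.85 ± 0.08). AT1G27200 had 6.42, 6.69 and 6.99 in NIL DOG3, against 4.26, 4.97 and 5.32 in NIL DOG6 and 4.52, 4.85 and 5.33 in NIL DOG1 (1.81 ± 0.08). All 3 were higher on every NIL DOG3 array than on any array of the other lines, and the NIL DOG6 level of TRM9 lay between those of NIL DOG3 and NIL DOG1.

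PRK, the phosphoribulokinase of the Calvin cycle, had 5.19, 5.74 and 6.24 in NIL DOG3, against 3.43, 4.60 and 4.99 in NIL DOG6 and 3.41, 4.54 and 4.92 in NIL DOG1 (1.26 ± 0.12). HINT 2, a gene of the histidine triad nucleotide-binding family, had 7.48, 7.65 and 7.91 in NIL DOG3, against 5.77, 6.36 and 6.67 in NIL DOG6 and 6.75, 6.96 and 7.18 in NIL DOG1 (1.00 ± 0.05). Neither gene overlapped between NIL DOG3 and the other lines. PRK overlaps AT1G32070 in the gene table, and HINT 2 overlaps AT1G31150. AT1G24040 (1.43 ± 0.07), AT1G23830 (1.29 ± 0.10), AT1G32860 (1.15), AT1G28070 (1.15), AT1G27190 (1.13) and AT1G27530 (1.10) followed. AT1G30190 (1.14) and ATL15 (1.06), a gene of the ATL family of RING type ubiquitin ligases, also belong here and return below for their responses to growth conditions.

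**Figure D2:**
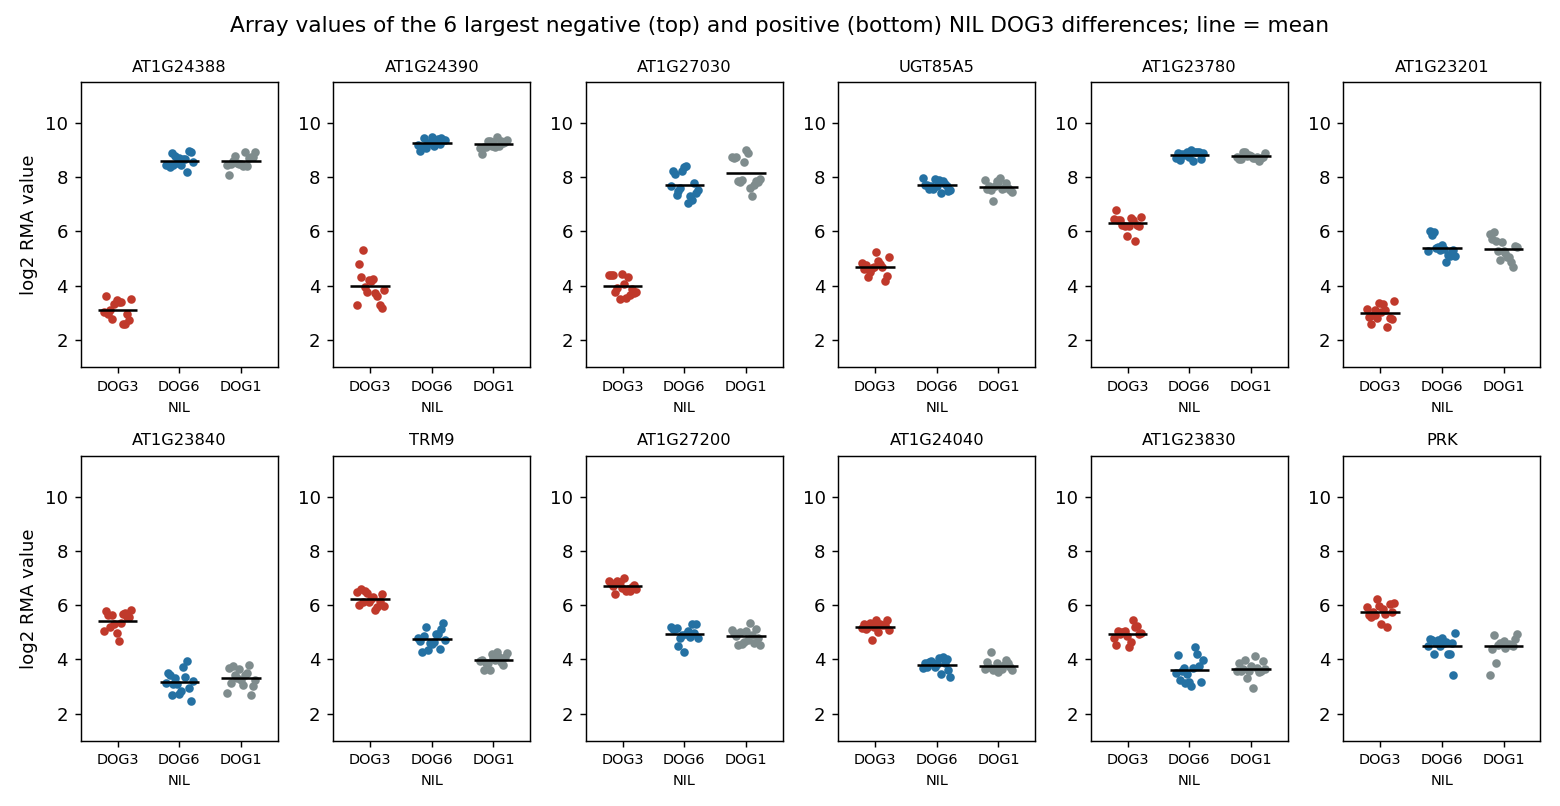
Log2 values of single arrays are plotted by line for the 6 members with the largest negative difference (top) and the 6 with the largest positive one (bottom), with the mean of each line as a bar. NIL DOG3 (14 arrays) stands left of NIL DOG6 and NIL DOG1 (15 each). NIL DOG3 does not overlap the other lines in the top panels. In the bottom row it overlaps NIL DOG6 for AT1G23830, with the lowest NIL DOG3 array at 4.44 and the highest NIL DOG6 array at 4.46.

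Members with large differences also differed in level. The 37 members at least 2-fold lower had a median level of 4.38 in NIL DOG3 and 7.11 in the other lines. In NIL DOG3, 17 of the 37 were below the median of all probe sets, and in the other lines 0. The 14 members at least 2-fold higher had a median level of 5.85 in NIL DOG3 and 4.42 in the other lines, and 6 of them were below the median of all probe sets in the other lines only. Over all 1181 members the median level was 3.90 in NIL DOG3 and 3.95 in the others. For members near background in one line the size of the difference is limited by that background.

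In 47 members the arrays of NIL DOG3 did not overlap those of the other 2 lines, with 35 entirely below and 12 entirely above. Over all probe sets 0.244% did not overlap, or 68 probe sets, with 0.169% below and 0.0755% above. The members hold 47 of these 68, the left-out loci of the span 2, the rest of chromosome 1 has 3, and chromosome 5 has 16. Non-overlap restates the contrast that chose the span, so nothing is read from where these probe sets lie. The first such member by locus is ZYP1b and the last AT1G33050.

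Members past the threshold were found in each condition. At 15C 173 members were called (background 3.6%), under N0 125 (1.63%), at 20C 158 (2.22%), under LL 156 (2.72%) and under SL 157 (2.62%). Lower members outnumbered higher ones in each condition. Members called lower numbered 98 at 15C (background 1.57%), 85 under N0 (0.855%), 97 at 20C (1.01%), 106 under LL (1.53%) and 99 under SL (1.15%). Members called higher numbered 75 at 15C (background 2.03%), 40 under N0 (0.773%), 61 at 20C (1.21%), 50 under LL (1.19%) and 58 under SL (1.46%). The count under N0 rests on 2 NIL DOG3 arrays, where the median SE was 0.16 in place of 0.138. All 51 members with a difference of at least 2-fold had the same sign in all 5 conditions, as did 322 of the 368 called and 412 of all 1181. Of all 27827 probe sets 5079 did. These counts use the contrast that chose the members, so nothing is read from them.

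Set against each line alone, 144 members were higher and 178 lower in NIL DOG3 than in NIL DOG6 (background 9.61%), and 149 were higher and 189 lower than in NIL DOG1 (background 11.1%). These comparisons share the NIL DOG3 arrays. AT1G24388 differed by -5.49 from NIL DOG6 and by -5.46 from NIL DOG1, and UGT85A5 by -3.00 and -2.94. AT1G30845 shows another pattern. It had 3.59, 3.73 and 4.03 in NIL DOG3, against 4.99, 5.98 and 6.21 in NIL DOG6 and 3.67, 3.90 and 4.38 in NIL DOG1. Its difference of -1.12 thus rests on NIL DOG6, since NIL DOG3 and NIL DOG1 overlapped.

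Along the segment, stretches with many called members alternated with sparse ones. The members were divided into 24 runs of 50 consecutive measured loci, with 31 in the last. Each run held 5 to 24 called members, or 14% to 48%, where 11.9% of all probe sets were called. The highest count, 24 of 50, was from AT1G22260 to AT1G22767, which holds the UGT85A cluster, 10 members with at least a 2-fold difference and 7 whose arrays did not overlap. The lowest counts of a full run were 7 of 50 (14%), from AT1G23200 to AT1G23710 and from AT1G29450 to AT1G29952, close to the share over all probe sets. Members with at least a 2-fold difference occurred in 19 of the 24 runs.

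Near the ends the counts differed. The first 2 runs held 14 and 10 called members, and the last 2 held 8 of 50 (16%) and 5 of 31 (16.1%), not far from the 11.9% of all probe sets. Among the 200 measured loci before the segment 28 were called (14%), 14 of them in the run next to it, with 1 at least 2-fold. Among the 200 loci after it 12 were called (6%) and 0 were at least 2-fold. The first member with a 2-fold difference was AT1G21670 and the last AT1G33055. Of the 5 first members 2 were called, AT1G21370 (0.29) and emb2170 (-0.32), an embryo defective locus, and the 5 lay between -0.32 and 0.29. The 5 loci just before the first member lay between 0.0035 and 0.13 with 0 called. The last 5 members lay between -0.05 and 0.08 and the next 5 loci after them between -0.05 and 0.09, with 0 called in both.

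**Figure D3:**
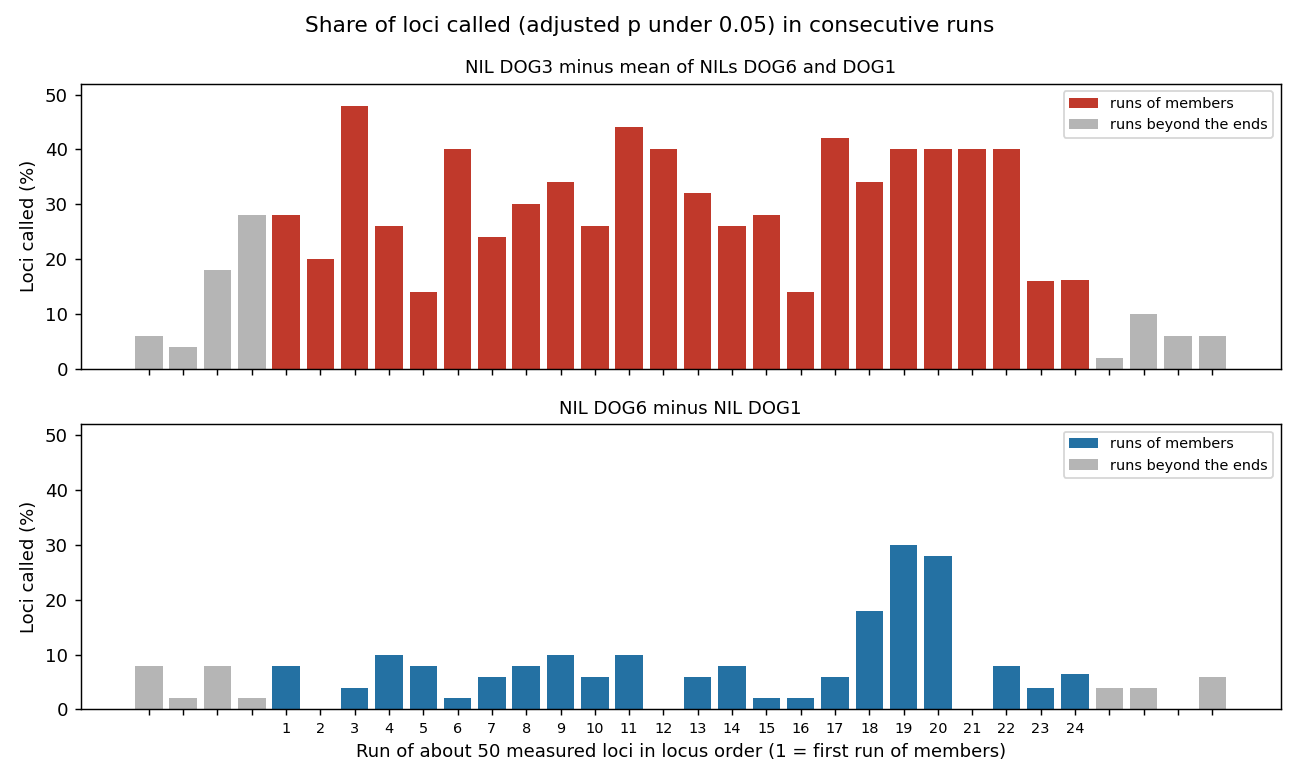
Bars give the percent of loci called in consecutive runs of about 50 measured loci, for NIL DOG3 minus the mean of the other NILs (top) and for NIL DOG6 minus NIL DOG1 (bottom). Runs 1 to 24 are the members and grey bars are the 200 loci beyond each end. In the top panel runs of members reach 48%, and in the bottom panel 3 consecutive runs reach 18%, 30% and 28%.

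Neighbouring called members shared their sign about as often as neighbours over the whole array. Of the 1180 pairs of neighbouring members, both were called in 149, with the same sign in 99 (66.4%) and opposite signs in 50. Of the 719 pairs of neighbours on chromosomes 1 to 5 in which both were called, those of the segment included, 478 had the same sign (66.5%). Both were at least 2-fold different in 12 pairs, 9 with the same sign and 3 with opposite signs. Of the 9, 5 lie in a row from UGT85A2 to AT1G22410, and the other 4 include the overlapping pairs of AT1G24388 and of AT1G33055. In the 3 opposite pairs AT1G23840 was higher (2.15) and AT1G23850 lower (-1.54), and AT1G27530 was higher (1.10) while AT1G27520 (-1.70) and AT1G27540 (-1.69) on either side of it were lower.

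The other gene lists of the segment had median differences from -0.0248 to 0.203. The share called was 31.2% of the members, and the background on the whole array 6.69% in the higher and 5.2% in the lower direction. The counts of these short lists, on the contrast that chose the segment, are a description. Of 15 transcription factors of the auxin, flowering and meristem programmes, 4 were called higher in NIL DOG3 and 0 lower, with a median of -0.006. They were the auxin response factor ARF6 (0.34), the leaf polarity factors PHV (0.29) and KAN2 (0.19), and SPL11 (0.21). SEP3, which specifies floral organs, differed by -0.01 and was not called. Of 15 stress and defence regulators, 4 were called higher and 2 lower (median 0.0063, against -0.0048 for all probe sets). COR314-TM2, named for its cold response, was 0.62 higher, the immune receptor gene ADR1 0.37 and the jasmonate response factor MYC2 0.30. TGA3, a factor of salicylate-dependent defence, differed by -0.35 and the cytokinin receptor HK3 by -0.13. Of 8 AP2/ERF factors, ERF11 alone was called (0.69). None of the 5 MYB, DOF and B-box factors and none of the 8 SAUR auxin-induced genes was called (0 and 0), and the SAUR median was -0.0047.

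Of 9 genes of carbon and amino acid metabolism 5 were called higher and 1 lower (median 0.20), beside the background of 6.69% higher and 5.2% lower. PKp3, a plastid pyruvate kinase, had 5.46, 5.79 and 6.06 in NIL DOG3, against 4.62, 5.11 and 5.61 in NIL DOG6 and 4.74, 5.15 and 5.53 in NIL DOG1 (0.65 ± 0.07). IMD3, an isopropylmalate dehydrogenase of leucine synthesis, had 3.38, 3.97 and 4.51 in NIL DOG3, against 4.24, 4.91 and 5.55 in NIL DOG6 and 4.55, 5.07 and 5.66 in NIL DOG1 (-0.97 ± 0.10). Arrays of the lines overlapped for both genes. PRK, the phloem sucrose transporter SUC2 (0.41), the adenine phosphoribosyltransferase APT1 (0.36) and AK-HSDH (0.20), an enzyme of the aspartate pathway, were the other higher ones. Of 5 ubiquitin and COP9 genes, LCR (0.43) was called higher and RUB1 (-0.34) lower.

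Whether the NIL DOG3 difference changed with the growth condition was tested, since the mean difference that chose the segment does not enter that test. A moderated F test over the 5 conditions called 5 of the 1181 members (background 0.226%). With the replicate number as a block it called 3 (AT1G22890, AT1G26410 and AT1G23970), and against NIL DOG1 alone it called 1. With replicate number 1 left out it called 0. That fit has fewer arrays, and whether the calls were lost through lower precision was not tested. Leaving out number 2 or 3 leaves NIL DOG3 under N0 with 1 array, and those fits are taken up below. AT1G22890, a locus without a symbol, had values of 7.08, 7.47 and 7.22 in NIL DOG3 at 15C, against 6.23 to 7.16 in NIL DOG6 and 6.60 to 7.0 in NIL DOG1. Under LL it had 7.0, 7.05 and 8.08 in NIL DOG3, against 8.82 to 8.99 in NIL DOG6 and 9.0 to 9.30 in NIL DOG1. NIL DOG3 was thus above most arrays of the other lines at 15C and below all of them under LL. The difference was 0.59 at 15C, 0.40 under N0, -0.89 at 20C, -1.63 under LL and -1.55 under SL (limma F test, adjusted p = 0.00346). Taken 1 condition at a time, only the differences under LL and SL were called. Those at 15C, under N0 and at 20C were not (limma adjusted p = 0.341, 0.787 and 0.106). The 15C level minus the 20C level was 0.65 in NIL DOG3, -0.94 in NIL DOG6 and -0.74 in NIL DOG1.

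AT1G26410 had a like order of conditions. It had 6.40, 6.14 and 6.21 in NIL DOG3 at 15C, against 3.90 to 5.01 in NIL DOG6 and 5.08 to 5.84 in NIL DOG1. Under LL it had 4.39, 5.05 and 5.51 in NIL DOG3, against 5.17 to 5.99 in NIL DOG6 and 6.13 to 6.61 in NIL DOG1. NIL DOG3 was above all arrays of the other lines at 15C, and under LL overlapped NIL DOG6 and lay below NIL DOG1. The differences were 1.33 at 15C and -1.04 under LL (adjusted p = 0.00346). AT1G26420, which follows it in locus order, had differences of 0.48 at 15C and -1.29 under LL (F test adjusted p = 0.0496, or 0.0688 with the replicate block). Taken alone, the 15C difference of AT1G26420 was not called (limma adjusted p = 0.392), and that under LL was. NIL DOG6 and NIL DOG1 also differed from each other at these loci. NIL DOG6 minus NIL DOG1 was -0.78 for AT1G26410 and -0.66 for AT1G26420 (limma adjusted p = 0.000266 and 0.000309). Averaged over conditions, NIL DOG3 minus NIL DOG6 was 0.50 for AT1G26410, while NIL DOG3 minus NIL DOG1 was -0.28. For AT1G26420 these values were -0.10 and -0.76. Close neighbours can share probe sequence, which was not tested.

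AT1G23970, one of the largest negative differences above, was lower in NIL DOG3 in every condition, but by unequal amounts. Under LL it had 5.21, 5.16 and 5.27 in NIL DOG3, against 7.36 to 7.81 in NIL DOG6 and 7.85 to 7.99 in NIL DOG1. At 15C it had 6.16, 6.02 and 5.93 in NIL DOG3, against 7.46 to 7.79 in NIL DOG6 and 7.64 to 7.79 in NIL DOG1. The difference was smallest at 15C (-1.64) and largest under LL (-2.59), with no overlap in either (adjusted p = 0.0151). ATL15 had 5.01, 5.10 and 4.97 at 15C and 6.29, 6.85 and 6.42 at 20C in NIL DOG3. In NIL DOG6 it had 4.44, 4.74 and 4.21 at 15C and 5.02, 5.17 and 4.55 at 20C, and in NIL DOG1 4.43, 4.91 and 4.46 at 15C and 4.77, 4.70 and 4.81 at 20C. It was higher in NIL DOG3 than in every array of the other lines in both conditions, by 0.50 at 15C and by 1.68 at 20C (F test adjusted p = 0.0457, or 0.0538 with the replicate block). Taken alone, the difference at 20C was called and that at 15C was not (limma adjusted p = 9.75e-09 and 0.109).

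For single contrasts of conditions, ATL15 alone of the members passed for 15C. Its change between 15C and 20C was -1.49 in NIL DOG3, against -0.45 in NIL DOG6 and -0.16 in NIL DOG1, a difference of -1.19 ± 0.24 (limma adjusted p = 0.0474, or 0.0613 with the replicate block; background 0.0395%). For N0 and LL 0 members passed in limma, as did 0 of all probe sets. At an unadjusted p under 0.05, 68 members were counted for 15C (background 4.58%), 64 for N0 (4.88%) and 77 for LL (6.31%).

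**Figure D4:**
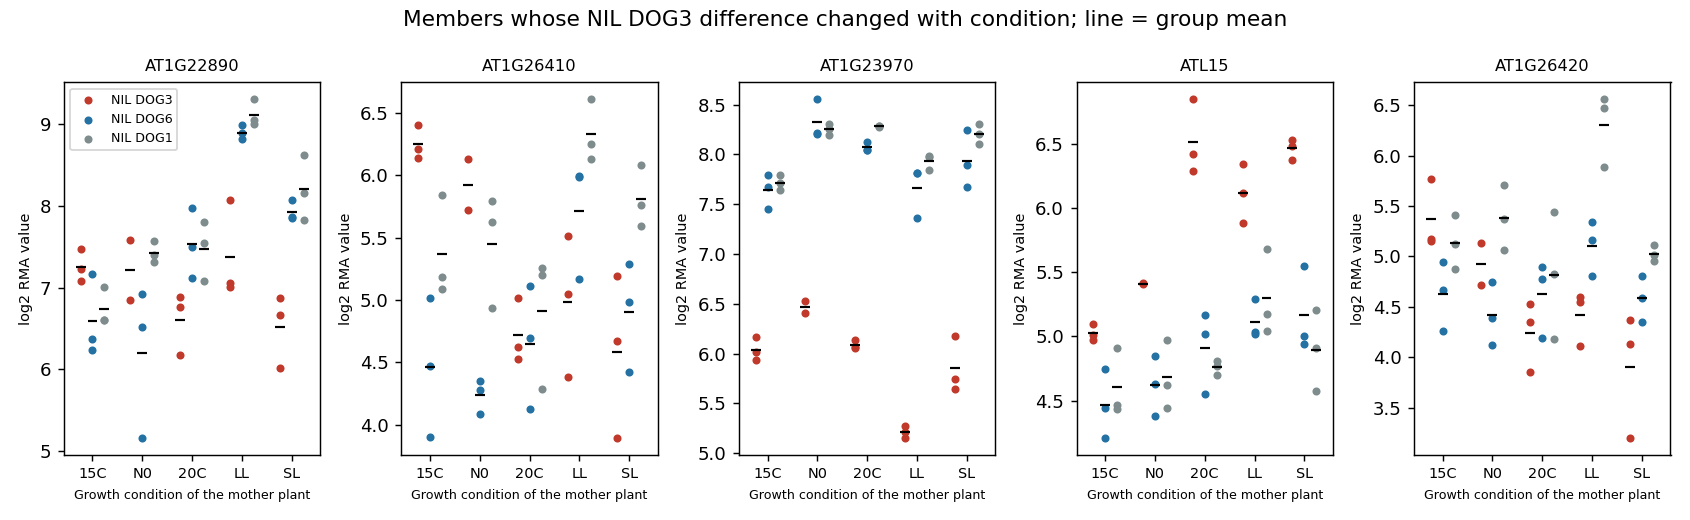
Log2 values of single arrays are plotted by growth condition for the 5 members that passed the F test, with NIL DOG3 left of NIL DOG6 and NIL DOG1 and a bar at each group mean. For AT1G22890 and AT1G26410 the NIL DOG3 mean is highest of the 3 lines at 15C and lowest under LL, for AT1G23970 it is lowest in all 5 conditions, and for ATL15 highest in all 5.

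The members responded to the growth conditions about as often as other genes. At 15C relative to 20C, 139 members rose and 138 fell in the mean of the 3 lines, or 23.5% (background 25.3%, with 12.5% rises and 12.8% falls). Under N0 relative to 20C, 71 rose and 58 fell, or 10.9% (background 11.9%, with 5.86% rises and 6.07% falls). Under LL relative to SL, 35 rose and 40 fell, or 6.35% (background 6.36%, with 2.73% rises and 3.63% falls). The direction was the same in the 3 lines for 262, 124 and 72 of these. The 15C and N0 comparisons share the 20C arrays.

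AT1G30190, which was also higher in NIL DOG3, showed the largest rise at 15C and under N0. At 15C it had 8.96, 8.38 and 8.54 in NIL DOG3, 6.63, 6.99 and 6.69 in NIL DOG6 and 7.35, 7.52 and 7.07 in NIL DOG1. At 20C it had 6.36, 6.95 and 6.78 in NIL DOG3, 5.54, 5.54 and 6.29 in NIL DOG6 and 6.03, 5.90 and 6.01 in NIL DOG1. Within each line the conditions did not overlap, and the rise was 1.42 ± 0.12 (limma adjusted p = 8.14e-11). Under N0 it rose by 1.31 ± 0.13 (adjusted p = 2.73e-09). Under LL relative to SL it moved the other way. It had 6.08, 4.99 and 5.39 under LL against 6.64, 6.96 and 6.70 under SL in NIL DOG3, with 4.09, 4.65 and 4.56 against 5.64, 5.53 and 5.44 in NIL DOG6 and 4.87, 4.89 and 4.75 against 5.77, 5.60 and 5.94 in NIL DOG1. LL and SL arrays did not overlap in any line, and the fall was -1.11 ± 0.12 (limma adjusted p = 1.08e-06), or -1.10 without the SL arrays numbered 2 (adjusted p = 4.48e-05).

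ALDH2B7, a mitochondrial aldehyde dehydrogenase gene, rose by 1.33 ± 0.11 at 15C (adjusted p = 5.01e-11). It had 4.86, 4.94 and 4.71 at 15C against 3.63, 3.57 and 3.80 at 20C in NIL DOG3, with 6.24, 6.11 and 6.06 against 4.42, 4.76 and 4.55 in NIL DOG6. GGT1, a glutamate:glyoxylate aminotransferase of photorespiration, fell by 1.36 on the log2 scale at 15C (adjusted p = 2.89e-13). It had 6.03, 6.49 and 6.06 at 15C against 7.12, 7.22 and 7.45 at 20C in NIL DOG3, and no array at 15C in any line overlapped those at 20C. Other rises at 15C were those of AT1G30730 (1.18), AT1G25275 (1.12) and AT1G23390 (0.86). Other falls were those of AT1G21740 (-0.87), AT1G32090 (-0.85), AT1G33790 (-0.80) and AT1G29140 (-0.77, limma adjusted p = 0.0393). AT1G29140 also fell under LL relative to SL (-1.08). The mean level of the 4 pollen markers was 5.48 to 6.46 on the 15C arrays (median 5.855). On the 20C arrays it was 5.93 to 7.34 (median 6.53). The part of pollen RNA in the 15C falls was not tested. Under N0, AT1G27030 rose by 0.78, AT1G28650 by 0.67, AT1G32710 by 0.63 and AT1G25275 by 0.62. AT1G33055 (-1.06), AT1G23410 (-0.98), AT1G32920 (-0.92), AT1G33790 (-0.64) and AT1G25422 (-0.63) fell. Some of these loci had low levels, below the median of all probe sets (4.28). AT1G23410 was at 1.73 to 2.62 under N0. At 20C, AT1G30730 was at 2.05 to 3.03 and AT1G28650 at 3.19 to 3.76. In NIL DOG3 alone, where AT1G27030 and AT1G33055 are low, their N0 responses were 0.50 and -1.03.

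Under LL the 5 largest falls included genes known from pollen, and AT1G30190, given above, fell by about as much as RALFL4 with a smaller adjusted p than any of the 5. BCP1, a homolog of a Brassica pollen protein, had 4.96, 5.41 and 5.38 under LL against 5.89, 7.74 and 6.11 under SL in NIL DOG3. In NIL DOG6 it had 5.20, 5.65 and 4.76 under LL against 7.16, 7.40 and 6.47 under SL, and in NIL DOG1 4.69, 5.25 and 5.30 against 5.80, 9.08 and 5.20. The conditions overlapped only in NIL DOG1, and the fall was -1.58 ± 0.33 (limma adjusted p = 0.00225). RALFL4, a signalling peptide of pollen tubes, fell by 1.12, and AT1G23350 by 1.16. AT1G23149 and AT1G23150, which hold identical values on every array, fell by 1.15. The mean level of the 4 pollen markers was 4.82 to 5.98 on the LL arrays (median 5.68) and 5.81 to 8.58 on the SL arrays (median 6.76), and all 4 markers were called lower under LL. The SL arrays numbered 2 were highest, at 7.68 to 8.58. Without those 3 arrays, a choice made after seeing the data, 30 members were called under LL in place of 75 (background 3.08% in place of 6.36%). Without them the change of BCP1 was -0.93 (adjusted p = 0.0145), that of RALFL4 -0.57 (adjusted p = 0.151), that of AT1G23350 -0.65 (adjusted p = 0.0518) and that of AT1G23149 and AT1G23150 -0.60 (adjusted p = 0.116). The part of pollen RNA in these values was not tested.

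Rises under LL were found for AT1G33590 (0.98 ± 0.25, adjusted p = 0.0139, or 0.0676 without the SL arrays numbered 2), AT1G22570 (0.96), AT1G22890 (0.91), AT1G26420 (0.77) and AGP31 (0.74), an arabinogalactan protein gene of the cell wall. AGP31 rose by 1.68 in NIL DOG6, against 0.32 in NIL DOG3 and 0.24 in NIL DOG1, and the difference of NIL DOG6 from the other lines was not tested.

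**Figure D5:**
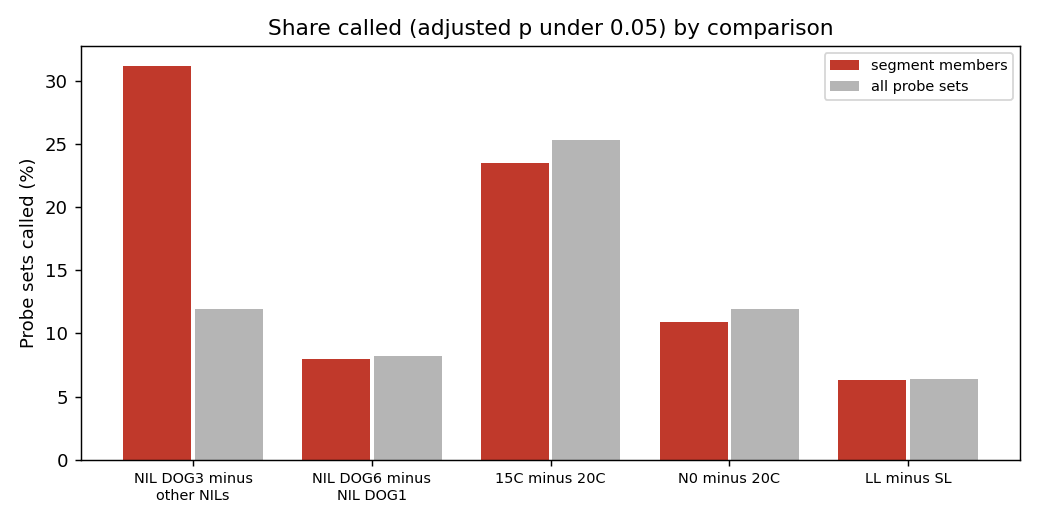
Bars give the percent of the 1181 members (red) and of all 27827 probe sets (grey) called in each comparison. For NIL DOG3 minus the other NILs, the contrast that chose the members, the shares are 31.2% and 11.9%, and in the other comparisons they lie close together, as 7.96% and 8.25% for NIL DOG6 minus NIL DOG1.

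NIL DOG6 and NIL DOG1 were compared as the pair that the choice of the segment did not use. Of the 1181 members, 41 were higher and 53 lower in NIL DOG6, or 7.96% (background 8.25%, with 4.02% higher and 4.23% lower). At least 1.5-fold differences were called in 17 (background 1.45%). These were unevenly placed. The 3 consecutive runs from AT1G30480 to AT1G31910 held 38 called members of 150 and 12 of the 17 large ones. The other 21 runs held 56 of 1031 called and 5 large ones, with 0 to 5 called in a run. This stretch was picked out after its values were seen, so no test of its density is given.

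Within that stretch the line that stands apart differed from gene to gene. IMPL1, an inositol monophosphatase-like gene, had 3.71, 4.0 and 4.36 in NIL DOG3, 3.46, 3.83 and 4.16 in NIL DOG6 and 5.24, 5.61 and 5.94 in NIL DOG1. NIL DOG1 did not overlap the others, and NIL DOG6 minus NIL DOG1 was -1.78 ± 0.06 (limma adjusted p = 5.47e-22). AT1G30845 was highest in NIL DOG6, as given above, with 1.92 ± 0.08 over NIL DOG1 (adjusted p = 9.85e-20). AT1G31760 had 4.80, 5.24 and 5.97 in NIL DOG3, 5.97, 6.39 and 6.66 in NIL DOG6 and 4.27, 4.75 and 5.14 in NIL DOG1, a difference of 1.63 ± 0.08 between NIL DOG6 and NIL DOG1 (adjusted p = 2.81e-17). NIL DOG6 and NIL DOG1 did not overlap for this gene, and NIL DOG3 lay between them. SRX, a sulfiredoxin that repairs oxidised peroxiredoxins, was lower in NIL DOG6 than in NIL DOG1 (-0.70, adjusted p = 4.14e-13), with medians of 6.95 in NIL DOG3, 7.04 in NIL DOG6 and 7.79 in NIL DOG1. AT1G30860 was lower in NIL DOG6 than in NIL DOG1 (-0.56), with means of 8.77 in NIL DOG3, 9.74 in NIL DOG6 and 10.29 in NIL DOG1. Outside the stretch, DYL1, a gene named as dormancy-associated, had medians of 9.45 in NIL DOG3, 9.53 in NIL DOG6 and 8.96 in NIL DOG1, and NIL DOG6 was 0.56 higher than NIL DOG1 (adjusted p = 1.12e-14).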

How the data were processed

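The values analysed are log2 values deposited by the authors in one table, which the submitters' processing notes say were made with RMA. RMA corrects background, applies quantile normalization and summarises probes, so a change of total RNA is not seen. No source used here states the RMA version, the array's annotation or a genome build, so coordinates are left out. The samples are labelled total RNA, while the labels' protocol also describes polysomal RNA. Locus names are those of the deposited table. Symbols came from a table of TAIR10.1, which listed 1156 of the 1181 members and gave a symbol for 385. It lists 1121 as protein coding, 35 as other types and omits 25. Values of 6 members equal those of another probe set.

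Means of 15 groups were fitted with limma 3.58.1 (lmFit, eBayes) in R 4.3.3 over all 27827 probe sets of 44 arrays (29 residual degrees of freedom, median residual SD 0.199), with no filter and no replicate block. All tests are two-sided, and calls are made at 0.05 on p-values adjusted by Benjamini-Hochberg across the whole array. The median SE was 0.0639 for the NIL DOG3 difference and 0.0715 for NIL DOG6 minus NIL DOG1. Precision is set by how many arrays there were. The fit was also run on simulated data with independent normal noise on each array. That simulation held no effect shared between arrays, so it does not bear on such effects in these data.

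Named genes were taken from the 15 largest differences per direction, the 6 smallest p of each test and the 5 largest rises and falls per condition. Up to 4 members per gene list were added. Not every gene of these sets is named, and AT1G32690 and AT1G23750 among the higher members were passed over. ZYP1b, ATJ1, JAZ8, FdC2, UGT85A1, UGT85A3, AT1G33050 and AT1G22410 among others were named after their values were seen. The gene table annotates 72 of 102 list entries, in 8 lists of 10, and the others were not used. The members and lists were chosen with earlier results of these data known. Alternatives were a replicate block, a filter on dim probe sets, another prior, equal array medians, subsets of arrays, single lines, a fold threshold and leaving out replicates.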

Additional observations from a re-analysis of the deposited data

Results flagged for a closer look

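The NIL DOG3 difference of 5 members changed with the growth condition by the F test of that change itself. The adjusted p was 0.00346 for AT1G22890 and 0.00346 for AT1G26410, 0.0151 for AT1G23970, 0.0457 for ATL15 (AT1G22500) and 0.0496 for AT1G26420. For ATL15 the response to 15C also differed between NIL DOG3 and the other lines, by -1.19 on the log2 scale. A sixth member, MEE8, missed the threshold with an adjusted p of 0.065. Groups held 2 or 3 arrays, too few for a check of single outlying arrays.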

How the results depend on the processing

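None of the named differences and responses changed sign under the alternatives run. Counts of called members and the F test have no sign that could reverse. Of these counts, 53 moved beyond a set ratio to the main fit and 112 did not. Shares in brackets are those of all probe sets called under the same alternative. A fold threshold of 2 left 14 members higher (0.172%) and 37 lower (0.208%) in the mean NIL DOG3 difference, 56 at 15C (0.557%), 53 under N0 (0.424%), 55 at 20C (0.46%), 51 under LL (0.5%) and 53 under SL (0.503%), 5 for the 15C response (0.801%), 2 for N0 (0.349%), 8 for LL (0.482%), and 5 for NIL DOG6 minus NIL DOG1 (0.532%). The F test called 3 members with the replicate block (0.169%), 11 without dim probe sets (0.726%), 10 with a trended and robust prior (0.345%) and 1 against NIL DOG1 alone (0.0862%). The call of ATL15 for 15C was lost (0 members) with the replicate block, with equal array medians, with only the arrays of the conditions compared and against NIL DOG1 alone, and 2 members were called against NIL DOG6 alone. With only the arrays of the condition, 66 members were called under N0 (0.517%) and 85 under LL (1.01%), and with only those of LL and SL the LL response gave 31 (3.03%), or 30 without the SL arrays numbered 2 (3.08%). Fits of fewer arrays have a less precise spread.

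Leaving out one replicate number gave 112 to 134 members higher (3.26% to 4.5%) and 152 to 161 lower (2.92% to 3.35%) in the mean, 96 to 113 at 15C (1.34% to 1.93%), 53 to 88 under N0 (0.482% to 0.992%), 92 to 98 at 20C (0.981% to 1.1%), 94 to 108 under LL (1.16% to 1.47%) and 96 to 103 under SL (1.05% to 1.25%). The 15C response gave 184 to 193 called members (17.3% to 18%), N0 44 to 82 (4.59% to 8.11%), LL 16 to 34 (1.26% to 2.84%) and NIL DOG6 minus NIL DOG1 52 to 57 (4.67% to 5.21%). In each of these counts the share of all probe sets fell as well. The F test and the 15C change gave 0 to 0. Without number 2 or 3, NIL DOG3 under N0 has 1 array, assumed to vary like the others. Of the named values, 12 were no longer called without number 1, 15 without number 2 and 10 without number 3, among them the N0 responses of AT1G33055, AT1G28650 and AT1G25275 without number 2. With only the arrays of the conditions compared 6 named calls were lost, 5 of them LL responses.

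Plants grew in blocks per the labels, which do not say that array numbers mark them. Of 43 same-numbered pairs 12 had deviations correlated above 0.1 (-0.139 to 0.398), and 21 of 44 arrays correlated best with their own number. The mean differences, the F test and NIL DOG6 minus NIL DOG1 use every condition, so subsets of arrays by condition give them no value.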

Other observations

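The gene lists of the segment responded to growth conditions in part. At 15C relative to 20C, 6 of 15 stress and defence regulators rose and 1 fell, and 4 of 8 AP2/ERF factors rose and 0 fell. RAP2.4 (AT1G22190), which rose by 0.22, is in both lists and is counted in both. Of the 15 transcription factors of the auxin, flowering and meristem programmes 1 rose at 15C and 0 fell. The same counts held for the 9 carbon and amino acid genes and the 5 ubiquitin and COP9 genes. Of the 5 MYB, DOF and B-box factors 0 rose and 1 fell. Under N0, 2 of the 7 UDP-glycosyltransferases rose, UGT85A5 (0.39) and UGT85A3 (0.46), and 0 fell. Both belong to the UGT85A cluster, whose copies can share probe sequence, which was not tested. Of the 8 SAUR genes 0 were called for 15C, 0 for N0 and 0 for LL. All probe sets gave 12.5% rises and 12.8% falls at 15C and 5.86% rises and 6.07% falls under N0.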
